A study of Mus musculus with 8 samples.

Results

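*Igfbp4*, *Vipr1* and *Gpr146* are 3 protein-coding genes, out of 20172 genes with values, that were chosen by their normalized counts, which were far lower in TNFR2+ than in TNFR2- regulatory T cells (Tregs), with no overlap between the libraries of the groups. The contrast on which they were selected is therefore given below as a description and is not tested. RNA was sequenced from Tregs sorted on the presence or absence of TNFR2, the TNF receptor encoded by *Tnfrsf1b*, at the cell surface. Both populations came from the spleens of female mice of the genotype Foxp3 YFP-cre, and there were 4 libraries of each. A YFP-Cre protein made under the control of *Foxp3* marks Tregs in these mice, so cells were enriched for CD4 and then sorted as YFP-positive, and every library carries the same allele. The labels name no treatment and give neither age nor day of sort (the methods describe young adult mice for the work as a whole). A figure legend of the study gives n = 4 after the mice of this sequencing. Neither the labels nor the methods tie a library to an animal, so the spread between libraries may be between animals or technical.

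The products of these genes act at the cell surface or outside the cell. IGFBP-4 is a secreted protein that binds insulin-like growth factors and keeps them from their receptor, is cut by the protease PAPP-A, and has also been described as an inhibitor of Wnt signaling at Frizzled and LRP6. *Vipr1* encodes VPAC1, a receptor for the neuropeptides VIP and PACAP that couples to the Gs protein and raises cyclic AMP, and which resting T cells are known to express and to lose on activation. *Gpr146* encodes an orphan receptor of the rhodopsin family, known mainly from the liver, where it acts on ERK and SREBP2 and thereby on plasma cholesterol.

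Each gene lies on the plus strand of GRCm38. *Igfbp4* (ENSMUSG00000017493) spans chr11:99041244-99054392, *Vipr1* (ENSMUSG00000032528) spans chr9:121642716-121672954, and *Gpr146* (ENSMUSG00000044197) spans chr5:139377697-139396415. The 250 bases upstream of annotated start sites are shown for the promoters from which these transcripts can begin, since all 3 genes were low in the same libraries. They were taken from RefSeq on GRCm38.p6, where *Igfbp4* and *Vipr1* matched 1 start site each and *Gpr146* matched 3. Capitals mark matches, on either strand, to any of 8 short motifs: the TATA box TATAAA, the CCAAT box CCAAT, the forkhead motif GTAAACA, the KLF and SP motif CCACCC, the TCF and LEF motif CTTTGAT, the RUNX motif TGTGGT, the ETS motif CCGGAA and the cyclic AMP response element TGACGTCA.
Igfbp4, chr11:99040994-99041243: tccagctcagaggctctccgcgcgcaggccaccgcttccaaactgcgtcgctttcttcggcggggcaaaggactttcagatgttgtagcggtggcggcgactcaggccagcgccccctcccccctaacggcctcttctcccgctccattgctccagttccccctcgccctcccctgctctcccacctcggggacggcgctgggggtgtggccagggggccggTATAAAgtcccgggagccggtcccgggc
Vipr1, chr9:121642466-121642715: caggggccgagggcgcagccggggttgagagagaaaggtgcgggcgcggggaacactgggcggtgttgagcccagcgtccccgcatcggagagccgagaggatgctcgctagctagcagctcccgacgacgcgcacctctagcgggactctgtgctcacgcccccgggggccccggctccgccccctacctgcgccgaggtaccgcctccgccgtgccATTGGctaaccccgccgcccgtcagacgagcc
Gpr146 start site 1, chr5:139377447-139377696: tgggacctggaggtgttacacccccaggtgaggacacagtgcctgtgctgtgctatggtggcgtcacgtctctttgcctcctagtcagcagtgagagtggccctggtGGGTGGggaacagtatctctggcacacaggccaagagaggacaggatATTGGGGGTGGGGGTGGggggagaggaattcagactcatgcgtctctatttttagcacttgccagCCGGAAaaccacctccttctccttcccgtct
Gpr146 start site 3, chr5:139389654-139389903: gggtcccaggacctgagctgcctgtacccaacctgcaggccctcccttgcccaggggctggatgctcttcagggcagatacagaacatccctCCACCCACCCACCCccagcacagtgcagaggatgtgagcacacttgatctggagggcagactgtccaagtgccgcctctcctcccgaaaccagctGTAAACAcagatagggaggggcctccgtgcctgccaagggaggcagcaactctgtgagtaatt

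In the *Igfbp4* window the match is TATAAA at bases -28 to -23 from the start site, a motif found in 12.4% of all 32851 promoter windows of the same length. The *Vipr1* window holds 1 inverted CCAAT box, ATTGG, at -32 to -28, and 33.8% of all windows hold a CCAAT box. For *Gpr146*, the window of start site 1 holds ATTGG at -96 to -92 next to GGGTGG at -91 to -86 and -85 to -80, a further GGGTGG at -143 to -138, and CCGGAA at -31 to -26. The window of its start site 3 holds the forkhead letters GTAAACA at -63 to -57, present in 3.17% of all windows, and 3 copies of CCACCC between -158 and -145 that share bases with each other. The KLF and SP motif was present in 28.1% of all windows and the ETS motif in 12%. The TCF and LEF, RUNX and cyclic AMP response motifs, present in 3.21%, 14% and 1.55% of all windows, were found in none of the windows of the 3 genes. The window of *Gpr146* start site 2, chr5:139380389-139380638, held none of the 8 motifs. No promoter motif was held in common by the 3 genes. The *Igfbp4* and *Vipr1* windows were rich in G and C, at 69.2% and 72.8% with 22 and 30 CpG, against medians of 52.4% and 6 CpG over all windows. The *Gpr146* windows held 57.6%, 70.0% and 60.8% G and C, with 5, 25 and 3 CpG. A motif match describes the letters and does not show that a factor binds.

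*Igfbp4* was the most abundant of the 3. TNFR2+ replicates 1 to 4 held 136, 132, 119 and 173 normalized counts of it, and TNFR2- replicates 1 to 4 held 1412, 2038, 1675 and 2302. The TNFR2+ libraries all lay near the same low value, and the lowest TNFR2- library was 8.14 times the highest TNFR2+ library. The means were 140 ± 23.3 and 1857 ± 393 normalized counts (SD, n = 4 each), and TNFR2- Tregs held 13.3 times as much. On the scale of log2(normalized count + 1) the difference was -3.71 (standard error 0.19). Ranked by level within each library, *Igfbp4* stood between ranks 775 and 1359 of all genes in TNFR2- Tregs and between ranks 6666 and 7866 in TNFR2+ Tregs.

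*Vipr1* stood at 14, 10.2, 13.9 and 33.5 normalized counts in TNFR2+ replicates 1 to 4, against 527, 139, 102 and 177 in TNFR2- replicates 1 to 4. One library in each population stood above its 3 companions, namely TNFR2+ replicate 4 and TNFR2- replicate 1, and the groups still did not overlap, with the lowest TNFR2- library at 3.04 times the highest TNFR2+ library. The means were 17.9 ± 10.6 and 236 ± 196 (SD, n = 4 each), 13.2 times as much in TNFR2- Tregs, and the log2 difference was -3.48 (standard error 0.53). In TNFR2+ replicate 2, the lowest, the value corresponds to about 12 reads, with an exact Poisson 95% interval of 5.27 to 17.8 normalized counts that covers counting error only. The size of this difference rests in part on TNFR2- replicate 1. Without it the TNFR2- mean of *Vipr1* was 139 ± 37.5 normalized counts (SD, n = 3), 7.78 times the TNFR2+ mean, and the log2 difference was -3.0.

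For *Gpr146* the normalized counts were 4.95, 46.0, 38.6 and 42.3 in TNFR2+ replicates 1 to 4, against 262, 193, 145 and 271 in TNFR2- replicates 1 to 4. TNFR2+ replicate 1 was far below the other TNFR2+ libraries, while the other 3 lay close together, and the lowest TNFR2- library was 3.14 times the highest TNFR2+ library. The means were 33.0 ± 18.9 and 218 ± 59.9 (SD, n = 4 each), 6.60 times as much in TNFR2- Tregs, and the log2 difference was -3.01 (standard error 0.59). The value in TNFR2+ replicate 1 corresponds to about 5 reads, with an exact Poisson 95% interval of 1.62 to 11.6 normalized counts, which lies below the interval of 27.7 to 52.7 in TNFR2+ replicate 3. Leaving out that library brought the log2 difference of *Gpr146* to -2.29. *Gpr146* also lies inside *3110082I17Rik*, a gene on the opposite strand from 139359739 to 139460527, and whether reads were assigned by strand is not stated. *3110082I17Rik* had 57.0 ± 31.6 normalized counts in the TNFR2+ subset and 23.1 ± 15.4 in the TNFR2- subset, and this difference did not pass the test (log2 difference 1.38, adjusted p = 0.196). In bulk samples such as these, fewer cells that express a gene and less RNA of it per cell cannot be told apart.

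**Figure D1:**
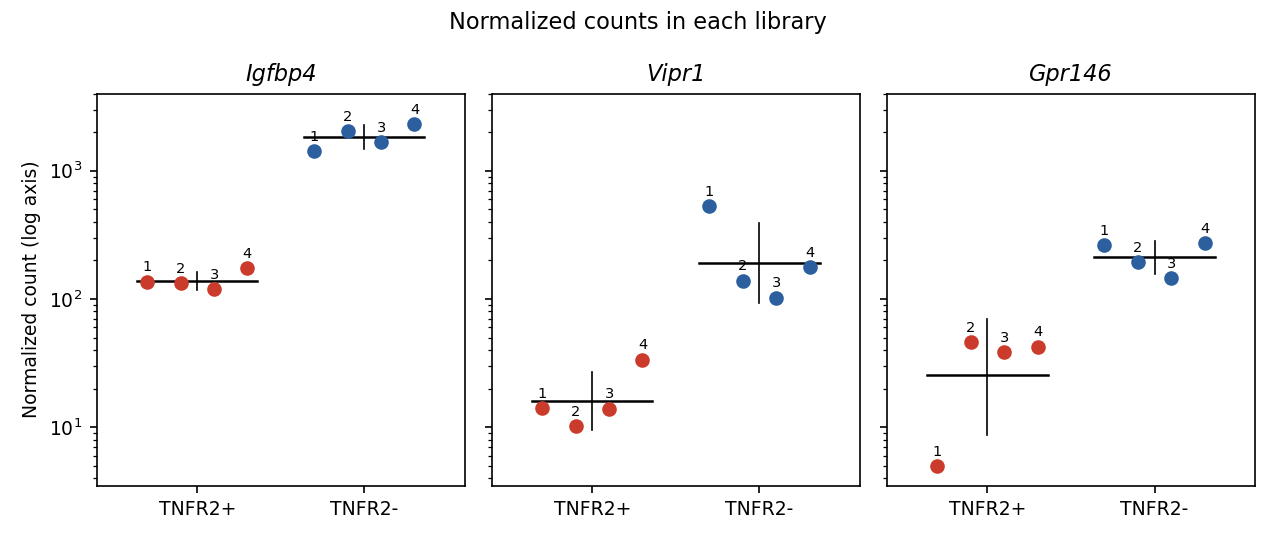
Normalized counts (log axis) of *Igfbp4*, *Vipr1* and *Gpr146* in TNFR2+ and TNFR2- Tregs, each point a library labelled with its replicate number, with the mean of log2 values as a line and 1 SD of log2 values as a bar. In each gene every TNFR2- library lies above every TNFR2+ library, with *Vipr1* spread from 102 to 527 in TNFR2- Tregs and *Gpr146* at 4.95 in a single TNFR2+ library.

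Per kilobase of the longest annotated transcript, which allows levels to be set side by side, *Igfbp4* had 36.6 ± 6.08 normalized counts in the TNFR2+ subset and 485 ± 102 in the TNFR2- subset. *Vipr1* had 3.65 ± 2.15 and 48.2 ± 40 per kilobase, and *Gpr146* had 7.73 ± 4.44 and 51.0 ± 14.1. In TNFR2- Tregs *Igfbp4* was above both other genes in every library. The means of *Vipr1* and *Gpr146* there lay within their spread, but that of *Vipr1* was raised by TNFR2- replicate 1, at 107 per kilobase against 61.4 for *Gpr146*. In the other 3 TNFR2- libraries *Vipr1* was the lower of the pair, at 28.4, 20.8 and 36.1 against 45.2, 33.9 and 63.6, and without replicate 1 the means were 28.4 ± 7.64 and 47.6 ± 15. On this scale *Igfbp4* went from the 92.1st percentile of tested genes in TNFR2- Tregs to the 38th in TNFR2+ Tregs. *Vipr1* stood at the 45.3rd percentile in TNFR2- Tregs and the 4.17th in TNFR2+ Tregs, and *Gpr146* at the 46.7th and the 10.7th. In TNFR2+ Tregs *Igfbp4* was again the highest of the 3. *Vipr1* was below *Gpr146* in 3 of the 4 TNFR2+ libraries and above it in replicate 1, and the means lay within their spread.

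The genes also differed in how much they varied within a population. The SD of the log2 values of *Igfbp4* was 0.23 in TNFR2+ and 0.31 in TNFR2- Tregs, against medians of 0.39 and 0.20 for genes of like level. For *Vipr1* it was 0.70 and 1.03, and in TNFR2- Tregs 97.0% of 4091 genes of like level varied less. For *Gpr146* it was 1.43 and 0.42, and in TNFR2+ Tregs 86.9% of 3204 genes of like level varied less. The largest deviations of *Vipr1* and *Gpr146* fell in different libraries. TNFR2+ replicate 1 was 2.15 below the TNFR2+ mean of log2 values for *Gpr146* and within 0.19 of it for *Vipr1*, and TNFR2- replicate 1 was 1.46 above the TNFR2- mean for *Vipr1* and 0.31 above it for *Gpr146*.

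All 13990 genes with a mean of at least 10 normalized counts over the 8 libraries were compared between the populations with limma, and the 3 genes were among them. Of these, 633 were higher and 474 lower in TNFR2+ Tregs at an adjusted p under 0.05, 7.91% in either direction, and the median log2 difference was -0.01. With library sums made equal the median was 0.12 and the split was 905 higher and 309 lower, and the log2 differences of *Igfbp4*, *Vipr1* and *Gpr146* were then -3.58, -3.36 and -2.89. The 3 genes had no overlap between the groups by the way they were picked, as did 7.29% of all tested genes in that direction, and nothing is read from this. Over all 13990 tested genes, *Igfbp4*, *Vipr1* and *Gpr146* held ranks 14, 18 and 41 by log2 difference, from the strongest fall. Among 439 genes that were lower at that threshold, had a mean of at least 50 and did not overlap, they held ranks 2, 3 and 5. These ranks restate that they were chosen for strong falls. Rank 1 was the processed pseudogene *Gm10052*, listed at 0 in each TNFR2+ library and at 131 to 533 normalized counts in TNFR2- Tregs, which was set aside because a pseudogene can take reads from its parent gene. Rank 4 was *Oas2*, an interferon-induced sensor of double-stranded RNA, with 9.28 ± 4.75 and 95.9 ± 59.1 normalized counts and a log2 difference of -3.13. Just beyond *Gpr146* came *Sorcs2*, with a log2 difference of -3.01, and *Sema4a*, with -2.96. No annotated transcript of another gene matched any of the 3 at 95% identity over 50% of its length.

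**Figure D2:**
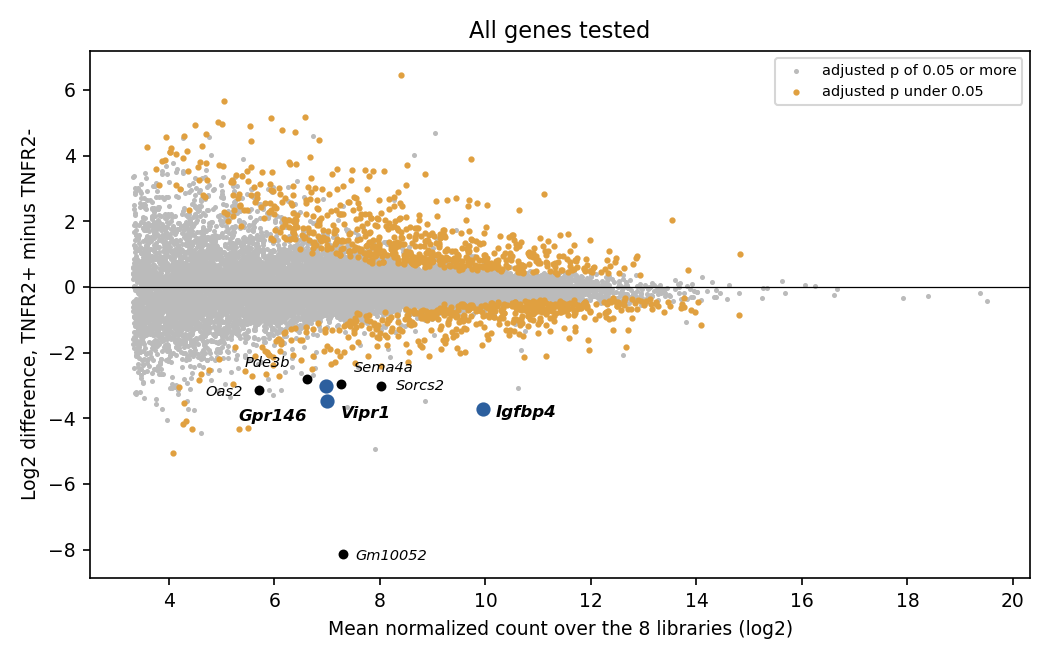
Each of the 13990 tested genes is a point, at its mean normalized count over the 8 libraries (log2) and its log2 difference between TNFR2+ and TNFR2- Tregs, with genes at an adjusted p under 0.05 in orange. *Igfbp4* at -3.71, *Vipr1* at -3.48 and *Gpr146* at -3.01 (blue) lie below most genes of their level, and black points mark *Gm10052*, *Oas2*, *Sorcs2*, *Sema4a* and *Pde3b*.

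The libraries summed to between 9576920 and 11492762 normalized counts, and between 9100000 and 12112000 reads were estimated for each. *Tnfrsf1b* had 1840 to 3148 normalized counts in TNFR2+ and 1177 to 1563 in TNFR2- cells (log2 difference 0.90, adjusted p = 0.00449, and 0.0574 when variances were moderated without an intensity trend). *Foxp3*, the factor that defines Tregs, had 3126 ± 219 and 3664 ± 316 normalized counts (adjusted p = 0.232). The second principal component held 16.7% of the variance and set TNFR2- replicate 3 apart at 91.32 from the other libraries at -39.08 to 17.96. Without that library the log2 differences were -3.75 for *Igfbp4*, -3.78 for *Vipr1* and -3.19 for *Gpr146*. Because *Igfbp4* is also made by stromal cells, markers of other cells were examined. For stromal and endothelial cells 8 of 12 markers were in the table, and their summed level was 1036 to 1670 in TNFR2+ and 2331 to 3281 in TNFR2- Tregs. Most of that sum was *Pecam1*, at 1088 ± 287 and 2475 ± 615 normalized counts (log2 difference -1.18, adjusted p = 0.00344). *Pecam1* is expressed by endothelial cells and also by T cells. The endothelial genes *Cdh5* and *Kdr* did not exceed 22.1 and 14 in any library. The endothelial gene *Vwf* was at 78.9 to 137 in TNFR2+ and 61.9 to 155 in TNFR2- Tregs. The collagen gene *Col1a1*, made by fibroblasts, was at 426 in TNFR2- replicate 3 and at 7.07 or less in the other 7 libraries. *Col3a1* was at 29.7 in TNFR2- replicate 4 and at 0.519 or less elsewhere. The collagen gene *Col1a2* had its highest value in a TNFR2+ library, at 4.01 to 48.5 in TNFR2+ and 3.91 to 15.1 in TNFR2- Tregs. The listed marker *Madcam1* reached 9.66 in TNFR2+ Tregs and was at 0 in TNFR2- Tregs. B cell markers (12 of 15 in the table) summed to 4032 to 6092 and 1846 to 2990, mostly *Ighm*, at 4608 ± 883 and 1911 ± 391 (log2 difference 1.27, adjusted p = 0.000745). *Cd79a* was at 6.10 or less in every library, whereas *Cd22* had 309 ± 35.6 and 150 ± 70.6 normalized counts (adjusted p = 0.0612), and *Ms4a1*, *Ebf1* and *Cd79b* reached 99.4, 80.4 and 64.6 in single libraries. Myeloid markers (11 of 20) summed to 358 to 436 and 356 to 546. The most abundant were *Cst3*, at 197 ± 21.3 and 146 ± 19.3 normalized counts, and *Cd300a*, at 72.5 ± 45.4 and 99.9 ± 37.5. *Cd68* had 37.9 ± 20.5 and 44.7 ± 20.4, whereas *Csf1r* averaged 0 and 3.77. No tested myeloid marker passed. Cytotoxic lymphocyte markers (8 of 12) summed to 228 to 364 and 137 to 322. Among them *Nkg7* had 64.3 ± 19.3 and 7.83 ± 7.29 normalized counts (log2 difference 3.19, adjusted p = 0.00927), and no other tested marker of this list passed. Erythroid markers (2 of 9) summed to 17.1 to 70.7 and 1.63 to 43.3, and the single platelet marker in the table (1 of 6) was at 12.2 to 221 and 31.2 to 178. The part of other cells in the levels of the 3 genes was not tested.

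For the insulin-like growth factor (IGF) axis, in which IGFBP-4 acts, few genes could be tested. Of 26 ligands, other binding proteins, proteases, receptors and adaptors listed, 17 were in the table, 7 passed the filter on low values, 2 were lower and 0 were higher past the threshold, where 3.39% of all tested genes were lower and 4.52% higher. The median log2 difference of the 7 was 0.00. *Igf1r*, the receptor whose ligands IGFBP-4 sequesters, had 1464 ± 200 normalized counts in TNFR2+ and 1343 ± 138 in TNFR2- cells (log2 difference 0.12, adjusted p = 0.668). *Igf2r*, which clears IGF2, had 1997 ± 554 and 1954 ± 371 (log2 difference 0.01, adjusted p = 0.981). *Irs2*, an adaptor of the insulin and IGF receptors, fell from 4575 ± 593 to 3052 ± 339 normalized counts (log2 difference -0.58, adjusted p = 0.0115, and 0.0972 without the intensity trend). *Insr*, the insulin receptor, fell from 705 ± 80.2 to 487 ± 30.3 (log2 difference -0.53, adjusted p = 0.049), and passed the threshold in 1 of the 8 fits that left out a library, the one without TNFR2- replicate 3. Without each of the other 7 libraries in turn, 1 gene of the axis was called. *Insrr*, an orphan receptor related to the insulin receptor, had 29.8 ± 6.57 and 9.05 ± 6.36 normalized counts in groups that did not overlap, and its log2 difference of 1.89 did not pass (adjusted p = 0.129). The ligand *Igf2* averaged 6.96 and 0.518 normalized counts, and the binding proteins *Igfbp1* and *Igfbp7* averaged 0 and 3.19 and 4.48 and 0.820. These 3 genes were below the filter, so *Igfbp4* was the only binding protein gene of the family with a mean above it among those listed and in the table.

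The Wnt pathway was listed because IGFBP-4 has been placed at its receptors. Of 39 listed receptors, coreceptors and responding genes, 31 were in the table and 26 were tested, with 1 higher (4.52% of all tested genes were) and 5 lower (3.39% were), and a median log2 difference of -0.32 against -0.01. *Lef1*, a transcription factor that carries the Wnt signal to genes, fell from 3434 ± 552 to 1348 ± 140 normalized counts (log2 difference -1.34, adjusted p = 0.000238). *Znrf3*, a ligase that removes Frizzled from the surface and is itself induced by Wnt, fell from 714 ± 154 to 282 ± 40.1 (log2 difference -1.32, adjusted p = 0.00141). *Ryk*, a Wnt coreceptor, rose from 31.6 ± 12.6 to 110 ± 19.8 (log2 difference 1.83, adjusted p = 0.0098). *Lrp5*, *Axin2* and *Tcf7* had adjusted p of 0.0303, 0.0361 and 0.0268 and passed in 3, 2 and 2 of the 8 fits that left out a library. *Lrp6*, the coreceptor named for IGFBP-4, had 858 ± 95.2 and 1031 ± 387 normalized counts (adjusted p = 0.664). The number called was 3 without TNFR2+ replicate 1 or TNFR2- replicate 4, and with equal sums it was 2 higher and 3 lower.

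The other genes of the VIP system were sparse in these cells. The list held 11 ligands, receptors and receptor activity-modifying proteins (RAMPs), of which 4 were in the table and 3 were tested. None of the 3 passed with limma or with an unadjusted p under 0.05, that is 0 in each direction. Of all tested genes 4.52% were higher and 3.39% lower past the threshold. *Vipr2*, which encodes VPAC2, the receptor that activated T cells are known to use for the same peptides, had 23.8, 8.72, 2.47 and 37.2 normalized counts in the TNFR2+ subset and 13.8, 0, 0 and 5.37 in the TNFR2- subset. Its groups overlapped and its log2 difference of 2.10 did not pass (adjusted p = 0.336). *Ramp3* had 72.4 ± 25.3 and 42.6 ± 9.58 normalized counts (adjusted p = 0.309) and *Ramp1* had 168 ± 68.9 and 133 ± 54.8 (adjusted p = 0.652). Both encode partner proteins of receptors related to VPAC1.

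Other receptors that couple to Gs, as VPAC1 does, were mostly higher where they passed. Of 24 listed, 16 were in the table and 10 were tested. Past the threshold 4 were higher and 1 lower, where 4.52% and 3.39% of all tested genes were. The median log2 difference was 0.52. *Adora2a*, the main adenosine receptor of T cells, had 988, 982, 1411 and 1141 normalized counts in the TNFR2+ subset and 532, 392, 440 and 407 in the TNFR2- subset. Its groups did not overlap and it rose by a log2 difference of 1.35 (adjusted p = 0.000514). The prostaglandin E2 receptors *Ptger2* and *Ptger4* and the proton-sensing receptor *Gpr65* had log2 differences of 1.54, 0.47 and 0.91, with adjusted p of 0.0252, 0.0293 and 0.0454. They passed in 3, 3 and 2 of the 8 fits that left out a library, so that 2 receptors in all were called without TNFR2+ replicate 1, 2 or 3 or TNFR2- replicate 2, and 3 without TNFR2- replicate 4.

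Downstream of Gs, genes of the cyclic AMP cascade were tested for 45 of 57 listed (48 in the table). Past the threshold 8 were lower and 1 higher, where 3.39% and 4.52% of all tested genes were, with a median log2 difference of -0.15. With equal sums these became 7 lower and 3 higher. *Adcy6*, an adenylyl cyclase that makes cyclic AMP, had 51.6, 56.3, 43.5 and 79.6 normalized counts in the TNFR2+ subset and 244, 238, 287 and 211 in the TNFR2- subset, and fell by 2.09 on the log2 scale (adjusted p = 0.000733). A second cyclase, *Adcy9*, fell from 139 ± 40.3 to 44.6 ± 13.1 (adjusted p = 0.0159, lost without TNFR2+ replicate 2, TNFR2- replicate 1 or TNFR2- replicate 2). Among the phosphodiesterases, which break the messenger down, *Pde1b*, *Pde3b*, *Pde4b* and *Pde4d* passed as lower. *Pde1b* and *Pde4d* had adjusted p of 0.0198 and 0.0494 and passed in 3 and 1 of the 8 fits that left out a library. Both were lost without the intensity trend. *Pde4a*, *Pde4c*, *Pde7a*, *Pde8a* and *Pde10a* did not pass, with log2 differences from 0.07 for *Pde8a* to 2.83 for *Pde10a*, and *Pde7a* came nearest (log2 difference 0.68, adjusted p = 0.0582). *Pde3b* went from 173 ± 85.8 to 23.6 ± 9.62 normalized counts (log2 difference -2.81, adjusted p = 0.00203) and *Pde4b* from 2171 ± 269 to 1478 ± 74.7 (log2 difference -0.55, adjusted p = 0.0149). *Grk6*, a kinase that desensitizes receptors, fell by 0.66 on the log2 scale (adjusted p = 0.00483), while *Rgs2*, which shortens G protein signals, was the gene that rose, by 0.71 (adjusted p = 0.00708). Without the intensity trend *Pde4b*, *Grk6* and *Rgs2* no longer passed, with adjusted p of 0.0878, 0.0596 and 0.0727. *Gnas*, which encodes the Gs alpha subunit, had 3885 ± 199 and 3222 ± 260 normalized counts (adjusted p = 0.135). Without TNFR2+ replicate 2 or TNFR2- replicate 2 the number called was 5.

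For *Gpr146*, other orphan receptors and lymphocyte receptors of its class were listed, 57 in all with 36 in the table and 23 tested. Of these 1 was higher and 2 were lower, where 4.52% and 3.39% of all tested genes were, and the median log2 difference was -0.02. *Gpr183*, the oxysterol receptor that positions lymphocytes, had 615 ± 88.8 and 1017 ± 232 normalized counts (log2 difference -0.71, adjusted p = 0.0283), *Gpr132*, a receptor for lysolipids and protons, had a log2 difference of -0.51 (adjusted p = 0.0422), and *Gpr55* rose by 1.61 (adjusted p = 0.0362). These calls held in 3, 2 and 2 of the 8 fits that left out a library, and none of them held without TNFR2+ replicate 1 or 2 or TNFR2- replicate 2 or 4. Without TNFR2+ replicate 3, or without TNFR2+ replicate 4, 1 receptor was called. With equal sums 1 was higher and 0 were lower. Genes of the pathway by which GPR146 acts in liver were listed as well. Of 28 genes of ERK signaling and SREBP2-driven sterol metabolism, 27 were in the table and 26 were tested. Past the threshold 0 were higher and 2 lower (7.69%), where 4.52% and 3.39% of all tested genes were, 7.91% in either direction. The median was 0.02, and with equal sums 1 was higher and 2 were lower. *Srebf2*, which encodes SREBP2, had 1118, 1345, 1303 and 1442 normalized counts in the TNFR2+ subset and 1993, 2383, 1612 and 2561 in the TNFR2- subset. These groups did not overlap and *Srebf2* fell by 0.70 on the log2 scale (adjusted p = 0.015, and 0.0917 without the intensity trend), a call lost without TNFR2+ replicate 1 or TNFR2- replicate 2, and then 1 gene of the list was called.

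Genes of naive and resting T cells were listed because *Igfbp4* and *Vipr1* are known from such cells. Many of these fell alongside the 3 genes. Of 45 listed, all in the table, 42 were tested, 29 were lower (69.0%, against 3.39% of all tested genes) and 0 higher, and the median log2 difference was -1.01. The list was written with earlier results of these data known, so this share is a description and no independent support. The number lower was 22 to 30 when each library was left out and 16 without the intensity trend. *S1pr1*, the receptor that lets T cells leave lymphoid organs, fell from 2771 ± 634 to 637 ± 154 normalized counts (log2 difference -2.12, adjusted p = 7.90e-05), and *Klf2*, a factor that controls it, fell by 1.85 (adjusted p = 0.000244). *Satb1*, a chromatin organizer of T cells, fell by 1.92 (adjusted p = 0.000108) and *Sox4* by 2.32 (adjusted p = 0.000514). *Il7r*, the receptor for IL-7, and *Foxo1*, a factor of quiescent T cells, had log2 differences of -0.39 and -0.28 and did not pass (adjusted p = 0.101 and 0.179).

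The mean log2 value of the 42 genes was 9.20, 9.25, 9.10 and 9.39 across TNFR2+ replicates 1 to 4, and 10.24, 10.29, 10 and 10.47 across TNFR2- replicates 1 to 4. Within TNFR2+ Tregs the highest value was in replicate 4, the library in which *Igfbp4* and *Vipr1* were also highest, while *Gpr146* was highest in replicate 2. The lowest TNFR2+ value was in replicate 3, where *Igfbp4* was lowest, while *Vipr1* was lowest in replicate 2 and *Gpr146* in replicate 1. Within TNFR2- Tregs the highest was again in replicate 4, where *Igfbp4* and *Gpr146* were highest. The lowest TNFR2- value was in replicate 3, where *Vipr1* and *Gpr146* were lowest, while *Igfbp4* was lowest in replicate 1. The 5-read value of *Gpr146* in TNFR2+ replicate 1 and the high *Vipr1* value in TNFR2- replicate 1 had no counterpart in this mean. With 4 libraries a group these orders are a description, and a share of resting cells in each sort was not tested.

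**Figure D3:**
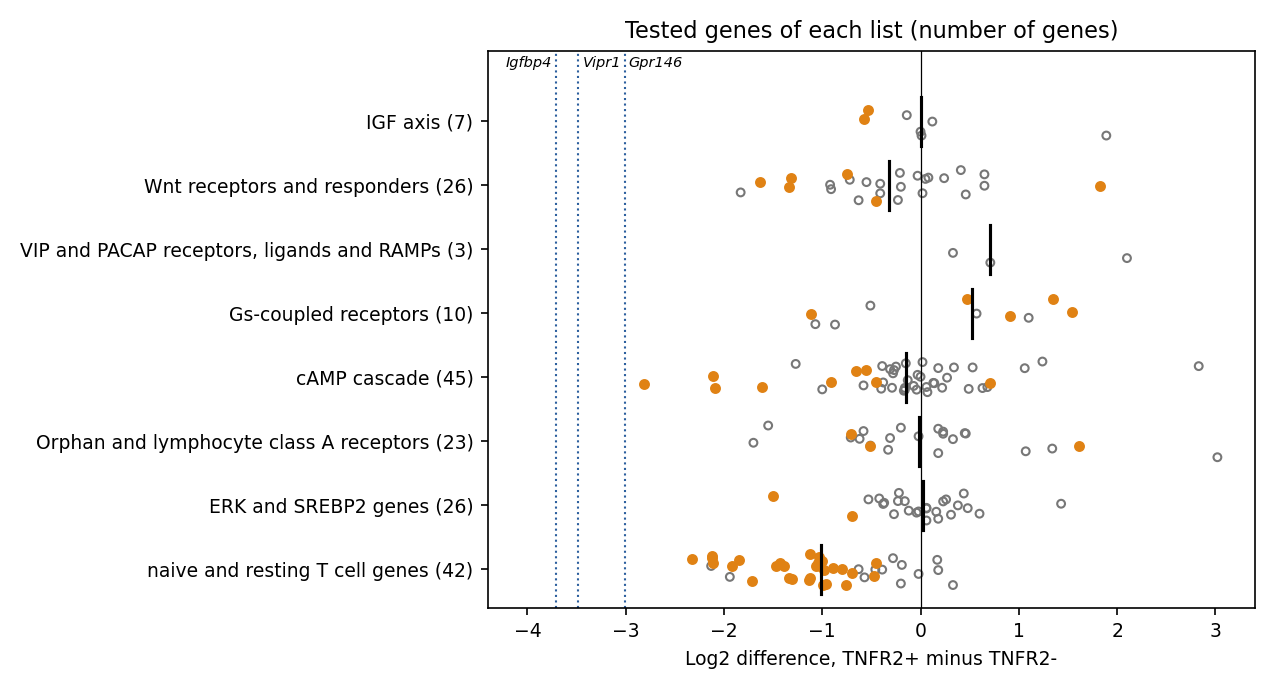
Log2 differences between TNFR2+ and TNFR2- Tregs for each tested gene of 8 lists, with the number tested in brackets, filled points at an adjusted p under 0.05, open points at other genes and a black bar at the median of the list. The dotted lines mark *Igfbp4*, *Vipr1* and *Gpr146*, which were chosen for their low values. The list of naive and resting T cell genes has the lowest median, -1.01, and all 8 lists were written with earlier results of these data known.

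Genes whose values followed each member most closely over the 8 libraries were found by the root mean square difference of log2 values, each centred on its own mean, among 9203 genes. A small distance requires a fall of similar size, so these genes differ between the populations by construction. *Igfbp4* was closest to *Pde3b* at 0.63, to *Sox4* at 0.79, to *1700056E22Rik* at 0.81 and to *Dnah17* at 0.82. *Pde3b* had 29.8, 11.4, 20.6 and 32.6 normalized counts in the TNFR2+ subset and 109, 127, 158 and 298 in the TNFR2- subset. *Vipr1* was closest to *Sorcs2* at 0.81, a sorting receptor with 64.6, 37.8, 20.2 and 103 in TNFR2+ and 496, 441, 134 and 789 in TNFR2- Tregs. Its second closest gene was *Igfbp4* at 0.82, followed by *Prrg1* and *Dnah17* at 0.90 and *Sidt1* at 0.96. None of these followed the peak of *Vipr1* in TNFR2- replicate 1 in full.

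*Gpr146* was closest to *Col11a2*, a collagen chain, at 0.60, and to *Sema4a*, a semaphorin, at 0.62. *Col11a2* had 20.3, 187, 65.0 and 129 normalized counts in the TNFR2+ subset and 567, 296, 490 and 337 in the TNFR2- subset, and *Sema4a* had 10.4, 25.6, 86.6 and 47.1 and then 239, 344, 209 and 270. In both genes TNFR2+ replicate 1 was the lowest library, as it was for *Gpr146*, which the distance favors because that library counts in it. *Dapk1*, *Cd7* and *Mob3b*, at 0.74, 0.79 and 0.83, were also lowest in that library, at 12.4, 8.04 and 12.7 normalized counts. Values of 1 library are not independent of each other, and why these genes were lowest in TNFR2+ replicate 1 was not tested. Between the members the distance was 0.82 for *Igfbp4* and *Vipr1*, 0.99 for *Igfbp4* and *Gpr146*, and 1.05 for *Vipr1* and *Gpr146*, and 20 other genes were nearer to *Igfbp4* than *Gpr146* was.

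**Figure D4:**
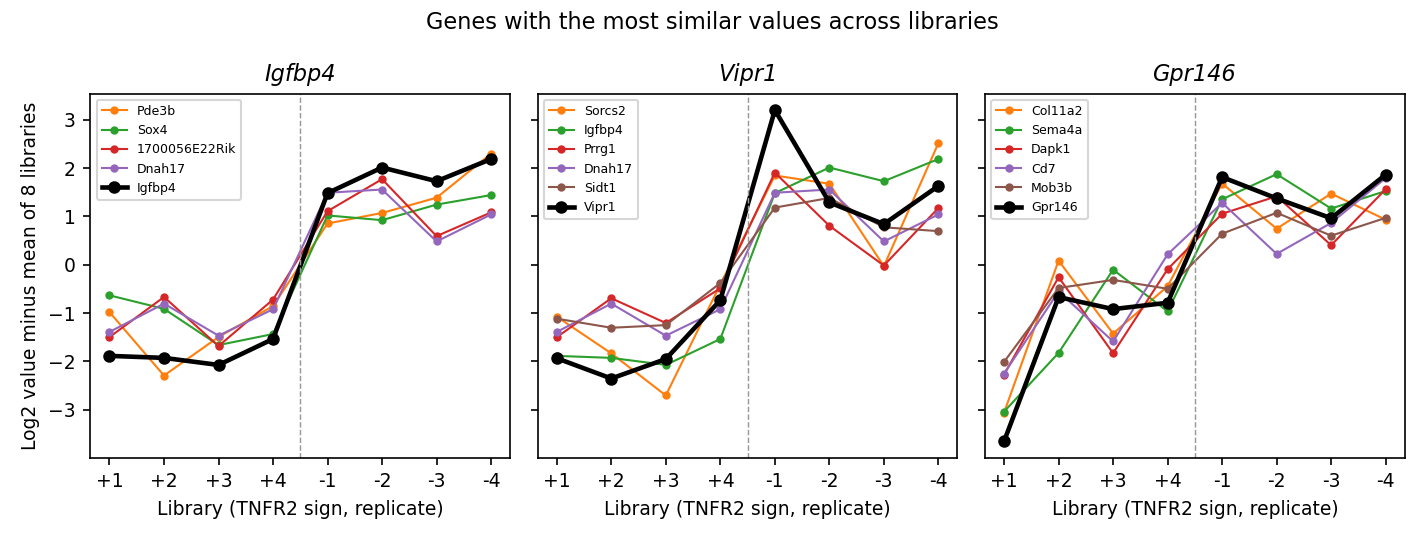
Log2 values minus the mean of the 8 libraries for *Igfbp4*, *Vipr1* and *Gpr146* (black) and genes among the 5 closest to each (colours), with TNFR2+ libraries (+1 to +4) left and TNFR2- libraries (-1 to -4) right of the dashed line. *Igfbp4* is level within each population, *Vipr1* peaks in TNFR2- replicate 1, and *Gpr146* and its closest genes, chosen for their likeness, are lowest in TNFR2+ replicate 1.

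The genes next to the members on the chromosome were not used in choosing them. For the 3 nearest tested genes on each side of each member, 18 in all, 3 were higher and 1 lower past the threshold, where 4.52% and 3.39% of all tested genes were, and the median log2 difference was -0.06. Beside *Igfbp4*, *Top2a* lies 17.1 kb to the left and *Tns4* 11.3 kb to the right. *Top2a*, a topoisomerase of dividing cells, rose by 1.66 on the log2 scale (adjusted p = 0.00909, and 0.0771 without the intensity trend), in the opposite direction from *Igfbp4*. *Cdc6*, which licenses replication origins and lies 117 kb to the left, rose by 1.98 (adjusted p = 0.0138, 0.0573 without TNFR2+ replicate 2 and 0.0601 without the intensity trend). *Tns4* had 18.5 ± 5.53 and 33.4 ± 24.8 normalized counts (adjusted p = 0.702). *Ccr7*, the chemokine receptor that guides naive T cells to lymph nodes, lies 89.8 kb to the right of *Igfbp4* and was the neighbor that fell, from 2438 ± 575 to 1381 ± 199 (log2 difference -0.80, adjusted p = 0.0109, and 0.0849 without the intensity trend).

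None of the 6 neighbors of *Vipr1* passed. The nearest, *Sec22c*, 7.09 kb to the right, had 93.0 ± 47.9 normalized counts in TNFR2+ and 159 ± 49.5 in TNFR2- cells (log2 difference -0.87, adjusted p = 0.222), and *Trak1*, 168 kb to the left, had a log2 difference of -0.06. Beside *Gpr146*, *Cox19* lies 26.3 kb to the left and had 53.7 ± 13.6 and 30.5 ± 15.3 normalized counts (adjusted p = 0.301). *Adap1*, 52.1 kb to the left of *Gpr146*, rose by 1.03 on the log2 scale (adjusted p = 0.0411) and passed in 1 of the 8 fits that left out a library, the one without TNFR2- replicate 3. *Zfand2a*, 74.8 kb to the right, had 459 ± 77.9 and 462 ± 182.

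**Figure D5:**
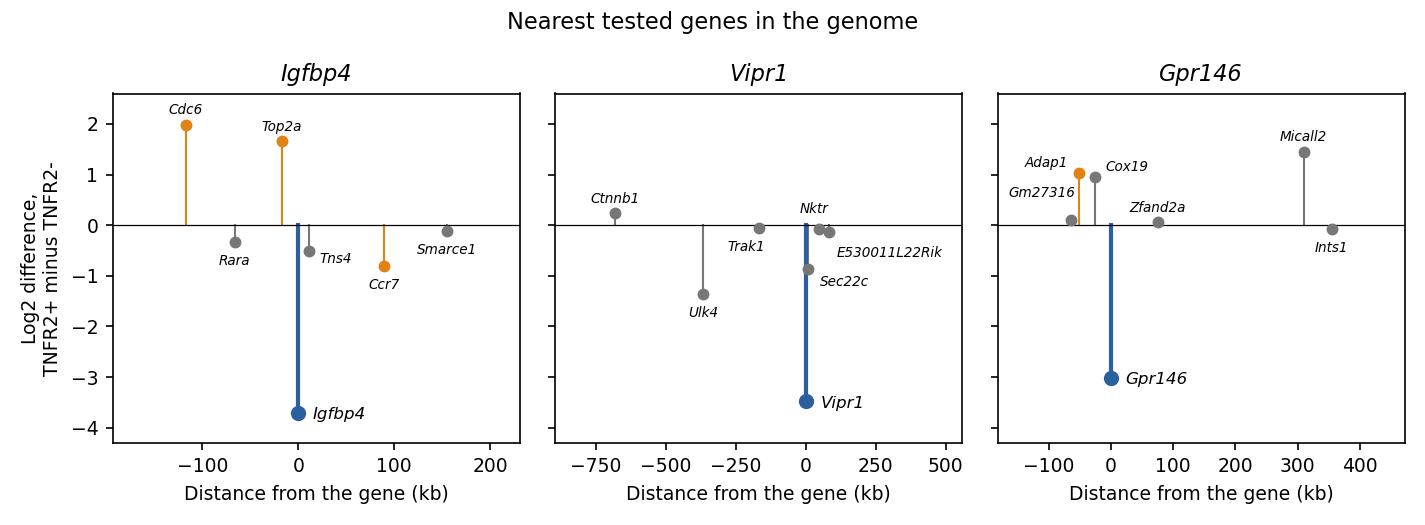
Log2 differences between TNFR2+ and TNFR2- Tregs for the 3 nearest tested genes on each side of *Igfbp4*, *Vipr1* and *Gpr146*, against their distance from the member in kilobases (the axis differs between panels), in orange where the adjusted p was under 0.05. *Ccr7* at -0.80 is the neighbor that fell past the threshold, and the members, chosen for their low values, are in blue at -3.71, -3.48 and -3.01.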

How the data were processed

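Stranded total RNA libraries of sorted TNFR2+ and TNFR2- Tregs (SMARTer pico input kit, Illumina sequencing) were processed by the authors, who checked reads with FastQC 0.11.8, trimmed them with Trim Galore, estimated transcript abundance with Salmon 1.3.0 on the Ensembl GRCm38 transcriptome and normalized genes with DESeq2 1.28 in R 4.0. How transcripts were summed to genes is not given in the sources used here. The deposited values are a normalized signal per gene (normalized counts), so a count model was not fitted. In 2806 single-transcript genes longer than 1500 bases, 69.7% to 96.5% of a library's values up to 12 lay within 0.1 of whole multiples of a single step (20% by chance), and this step gave the estimated reads. Of 20172 identifiers, 20008 matched the GENCODE annotation of GRCm38.

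Values were taken as log2(normalized count + 1), which understates changes of low genes, and the 13990 genes averaging 10 or more were tested with limma 3.58.1 in R 4.3.3 (intensity trend, two-sided, Benjamini-Hochberg adjustment, threshold 0.05), after the procedure was tested on simulated data. All 8 libraries entered the fit, grouped by their titles. Same-numbered libraries did not deviate together (correlations of -0.039 to 0.001), so no block was used. The members and the lists were chosen with earlier results of these data known. Lists were written by hand and share some genes (*Lef1*, *Tcf7*, *Rapgef4*, *Ramp1*). Genes named are the members, the genes nearest by rank, listed pathway genes with the lowest p or the most direct role, the 5 genes closest in profile, and the 3 nearest tested genes on each side. Some genes within these counts are not reported here by name. Similar transcripts were searched for with blastn 2.17.0, other steps used python 3.11.15, and plots matplotlib 3.10.9. Pseudocounts, filters, scaling, the trend, the block and each library were varied.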

Additional observations from a re-analysis of the deposited data

Results flagged for a closer look

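In TNFR2+ Tregs, *Vipr1* had 33.5 normalized counts in replicate 4, far above the other 3 libraries at 10.2 to 14, and the gap to the nearest library took up 0.837 of the range. *Gpr146* had 4.95 normalized counts in TNFR2+ replicate 1, far below the other 3 at 38.6 to 46.0, with a gap of 0.917 of the range on the log2 scale. Each exceeds Dixon's 95% critical value for 4 libraries on the scale given, and neither exceeds it on the other scale. The 3 genes were examined in both groups on both scales, 12 combinations in all, and chance alone marks about 1 group in 20.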

How the results depend on the processing

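The log2 differences of the 3 genes kept their direction under every alternative tried. *Igfbp4* ranged from -3.73 to -3.58, *Vipr1* from -3.53 to -3.20 and *Gpr146* from -3.05 to -2.76 with another pseudocount, filter, scaling, variance trend or replicate block, and from -3.83 to -3.60, -3.82 to -3.0 and -3.29 to -2.29 when each library was left out. Among all tested genes 1107 passed. Without the intensity trend 465 passed (425 of them shared), 182 of them lower, and equal sums gave 309 lower. Leaving out a library gave 636 to 1324, of which 279 to 547 were lower, with the fewest without TNFR2+ replicate 2 (636) and TNFR2- replicate 2 (279 lower). With the replicate block 1183 genes passed, and 1 of the IGF axis in place of 2. The pairing of numbers was not shown by the data, and the differences of the 3 genes were the same with the block. Without the intensity trend the lists held 0 (IGF axis), 3 (Wnt), 2 (Gs receptors), 3 (cyclic AMP), 0 (orphan receptors) and 16 (naive genes). A filter at a mean of 1 and equal sums each gave 1 for the IGF axis, and equal sums gave 1 for orphan receptors. Leaving out a library gave 1 to 2 (IGF axis), 3 to 6 (Wnt), 0 to 0 (VIP), 2 to 5 (Gs receptors), 5 to 9 (cyclic AMP), 0 to 3 (orphan receptors), 1 to 2 (ERK and SREBP2) and 22 to 30 (naive genes). The cause of these shifts was not tested. In TNFR2+ Tregs *Vipr1* and *Gpr146* rest on 5 to 54 reads a library, so counting error limits how precisely each value is known.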
